A study of Homo sapiens with 9 samples.

Results

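The RNA of 36 genes of glucose use and of the hypoxia-inducible factor (HIF) response was followed through heat stress and recovery in HEK293T cells. Neither glucose use nor HIF activity was measured in these data. The genes were given as a fixed list of symbols and matched by Ensembl identifier: 18 glycolytic enzymes, 4 transporters of glucose or lactate, 2 kinases of pyruvate dehydrogenase (PDH) and 12 HIF target genes. All 36 were among the 60664 genes of the deposited counts. Of these, 35 were among the 21139 genes that passed the filter on low counts and were tested, and carbonic anhydrase CA9 was not.

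HEK293T is a human embryonic kidney line that carries the SV40 large T antigen. Cells without heat treatment, labelled untreated wild-type and grown at 37 °C, formed the group NC. Cells of H1 were heated at 43 °C for 1 h, and cells of H1R1, H1R6 and H1R18 were heated in the same way and then recovered at 37 °C for 1, 6 or 18 h. There were 2 libraries of total RNA for each condition except H1R18, which had 1.

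Glycolysis splits glucose into pyruvate. Its early enzymes spend ATP, and its later enzymes, from GAPDH onwards, return ATP and NADH. Lactate dehydrogenase then turns pyruvate into lactate, which leaves the cell through monocarboxylate transporters. HIF is a pair of proteins, an oxygen-regulated alpha subunit and ARNT, that binds short DNA motifs near its target genes. When oxygen is present, prolyl hydroxylases (EGLN proteins) mark the alpha subunit, and the VHL ligase sends it for destruction. Many glycolytic genes are HIF targets, and several are also targets of MYC.

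Libraries held 3814195 to 6221613 counts. Each read of a pair was counted, and 81.8% to 87.5% of the counts above 0 were even numbers, so the counts exceed the number of independent fragments. All 8 marker genes listed for HEK293T were detected, from VIM at 201 to 291 CPM (counts per 1000000 after TMM normalisation) to INA at 0.353 to 2.0 CPM. The 9 markers of leukocytes, hepatocytes, endothelium and fibroblasts had at most 5 counts in any library. Whether the libraries of 1 condition were grown as separate cultures is stated neither in the labels nor in the study's methods. The p-values then reflect only how far these samples differ, possibly for technical reasons, and H1R18 was assumed to vary like the other conditions. The only H1R18 library was part of every test at H1R18, also in the alternative analyses. In bulk RNA, fewer cells expressing a gene and less RNA of it per cell cannot be told apart.

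The glycolytic enzymes were mostly abundant in NC. Per kilobase of exon, the mean NC level was 429.4 CPM for GAPDH, which makes the first energy-rich intermediate, 284.5 for ENO1, 182.7 for TPI1, 119 for PKM and 78.8 for LDHA. Aldolase ALDOA had only 6.33 CPM per kb. Of its exonic bases, 54.2% are shared with other annotated genes, and reads there were not counted. At the other end of the list were glucose transporter SLC2A3 at 0.37 and the ankyrin protein ANKRD37 at 0.59 CPM per kb. CA9 had 0 counts in every library but 1, the second H1R6 library, with 2 counts, and a count of 0 allows up to 1.0 to 1.57 CPM depending on the library (3 read pairs or 6 counts, counting error only).

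**Figure D1:**
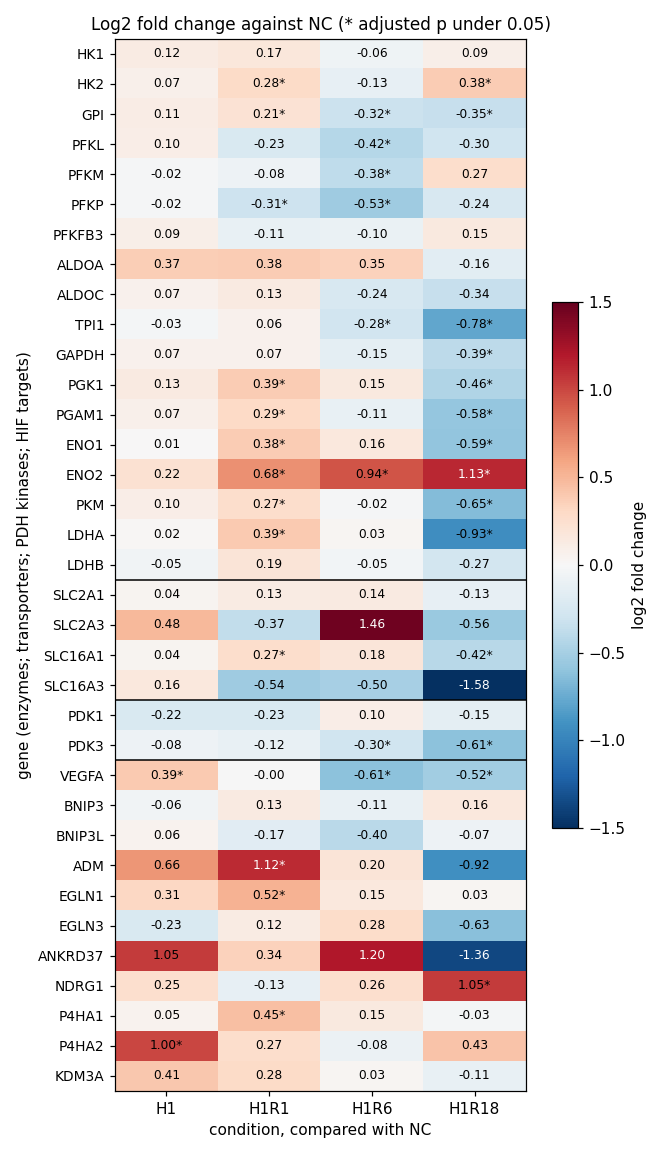
Log2 fold change against NC of the 35 tested genes (rows, grouped by role) at H1, H1R1, H1R6 and H1R18 (columns), with colour and number for its size and an asterisk for an adjusted p under 0.05. Few genes carry an asterisk at H1, 12 genes are called higher and 1 lower at H1R1, and 3 are called higher and 11 lower at H1R18.

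Right after heating, the list hardly moved. At H1, 2 of 35 genes (5.71%) were called higher than in NC, at an adjusted p under 0.05 in edgeR's quasi-likelihood test, and 0 were called lower. Of all genes tested, 3.43% were called higher and 1.77% lower. Without adjustment, 6 of the 35 had a p under 0.05 in the higher direction and 0 in the lower, and DESeq2 called 1 higher and 0 lower. One hour into recovery, more listed genes and more of all genes were called. At H1R1, 12 genes (34.3%) were called higher and 1 (2.86%) lower, against 10.7% and 9.53% of all genes. The list was not matched to all genes for expression level. With at least 10 counts in every library, 2129 of 13516 genes were called higher at H1R1 and 1915 lower. The balance of the listed genes then turned. At H1R6, 1 gene (2.86%) was called higher and 7 (20%) lower, against 3% and 4.03% of all genes, and at H1R18 the counts were 3 (8.57%) higher and 11 (31.4%) lower, against 4.58% and 6.43%. The median log2 fold change of the 35 genes was 0.07 at H1, 0.17 at H1R1, -0.05 at H1R6 and -0.30 at H1R18, and that of all genes tested stayed between -0.03 and -0.01. The listed genes were chosen with earlier results of these data known, so their shares do not test the list against all genes. These comparisons share the 2 NC libraries. No separate untreated libraries match the recovery times, so recovery from heat and added time in culture cannot be told apart. Over the 4 comparisons with NC, 14 listed genes were called at no time, 8 at 1, 10 at 2 and 3 at 3. This tally was not made over all genes, so it has no background to be read against.

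**Figure D2:**
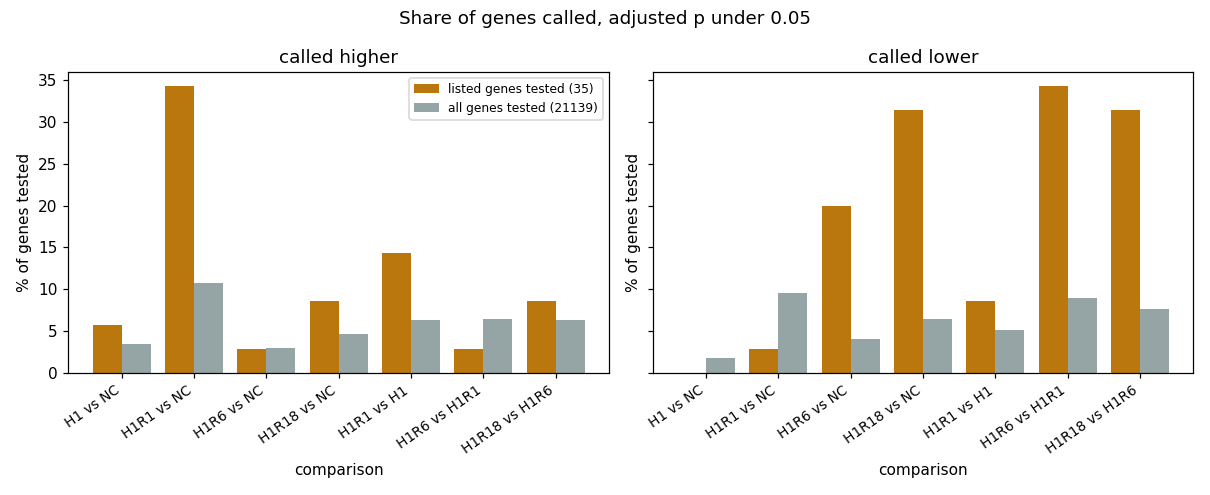
Share of genes called higher (left) and lower (right), in % of the genes tested, for the 35 listed genes and for all 21139 genes, in each of 7 comparisons. The listed genes reach 34.3% called higher at H1R1 against NC and 31.4% called lower at H1R18 against NC, where the shares of all genes are 10.7% and 6.43%. The listed genes and all genes were not matched for expression level, and the list was chosen with earlier results of these data known.

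Between neighbouring times the same turn showed, but these comparisons use the same fit and libraries and are not independent of those against NC. From H1 to H1R1, 5 listed genes rose and 3 fell (14.3% and 8.57%, against 6.35% and 5.08% of all genes). From H1R1 to H1R6, 1 rose and 12 fell (2.86% and 34.3%, against 6.43% and 8.93%). From H1R6 to H1R18, 3 rose and 11 fell (8.57% and 31.4%, against 6.28% and 7.65%). The direction of calls over all genes depended on the scaling at H1R1. With library size in place of TMM, the share of called genes that were higher moved from 52.8% to 42.3% for H1R1 against NC, from 55.6% to 43.4% for H1R1 against H1 and from 41.9% to 62.3% for H1R6 against H1R1. Of the listed genes, 9 were then called higher and 2 lower at H1R1 against NC, 2 higher and 5 lower from H1 to H1R1, and 3 higher and 8 lower from H1R1 to H1R6.

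The summed level of the 18 enzymes gives the same course in single libraries. It was 6138 and 6047 CPM in NC, 6320 and 6314 in H1, 7173 and 7130 in H1R1, 5822 and 6078 in H1R6, and 4362 in H1R18. The H1R1 libraries were the highest and the H1R18 library the lowest of the 9, while the H1R6 libraries overlapped those of NC. The sum is dominated by its most abundant members, and the listed genes together made up 0.535% to 0.848% of scaled counts.

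Enzymes of the upper part of the pathway did not move as a block. HK2, the inducible hexokinase that traps glucose in the cell, was at 98.7 and 89.76 CPM in NC, 93.41 and 105.1 in H1, 115.3 and 114.4 in H1R1, 87.78 and 85.18 in H1R6, and 123.2 in H1R18. Its H1R1 and H1R18 libraries lay above both NC libraries, and its H1R6 libraries below. HK2 rose at H1R1 (log2 fold change 0.28, SE 0.099, adjusted p = 0.0413) and at H1R18 (0.38, SE 0.122, adjusted p = 0.0383). The call at H1R1 was kept in 8 of 18 alternative analyses and was lost without NC replicate 2 or without any 1 of the H1 or H1R1 libraries. The call at H1R18 was kept in 12 of 17 and was lost without NC replicate 2 or H1 replicate 1. HK1, the constitutive hexokinase, was called at no time, with log2 fold changes of -0.06 to 0.17.

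Phosphofructokinase commits sugar to glycolysis and is built from liver (PFKL), muscle (PFKM) and platelet (PFKP) subunits. PFKP was at 104.4 and 90.54 CPM in NC and 93.59 and 98.91 in H1, but at 75.01 and 82.76 in H1R1, 74.18 and 61.37 in H1R6, and 82.88 in H1R18. Every recovery library of PFKP was below both NC libraries. PFKP fell at H1R1 by 0.31 (log2 fold change, SE 0.112, adjusted p = 0.046) and at H1R6 by 0.53 (SE 0.113, adjusted p = 0.00241). The H1R1 call was kept in 9 of 18 alternatives. It was lost with DESeq2, without NC replicate 1 and without any 1 of the H1 or H1R1 libraries, among others. PFKP was the only enzyme of the list called lower at H1R1. All 3 subunits fell at H1R6, PFKL by 0.42 (adjusted p = 0.00241) and PFKM by 0.38 (adjusted p = 0.0317). At H1R18, none of the 3 was called against NC. There PFKM stood at 142.2 CPM, its highest level, against 117.5 and 118.5 in NC (adjusted p = 0.212). The subunit calls at H1R6 were lost without H1R6 replicate 1 for PFKL and without NC replicate 1 or H1R6 replicate 2 for PFKP. That of PFKM was lost with DESeq2 and without any 1 of the NC or H1 libraries or H1R6 replicate 2.

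GPI, which turns glucose 6-phosphate into fructose 6-phosphate, changed direction. It was at 301.8 and 272.4 CPM in NC, 304.7 and 315.1 in H1, 330.5 and 335 in H1R1, 226.6 and 234.5 in H1R6, and 225.8 in H1R18. Its H1R1 libraries were the highest of the 9, and its H1R6 and H1R18 libraries were the lowest. GPI rose at H1R1 (log2 fold change 0.21, adjusted p = 0.0471), which only 6 of 18 alternatives kept and which was lost without NC replicate 2, H1R6 replicate 2 or any 1 of the H1 or H1R1 libraries. It fell at H1R6 by 0.32 (adjusted p = 0.00783) and at H1R18 by 0.35 (adjusted p = 0.0167), calls that were lost without NC replicate 1 and, at H1R6, also without either H1R6 library.

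TPI1, which interconverts the products of aldolase, was at 502.9 and 483.5 CPM in NC, 497.7 and 468.6 in H1, 516.2 and 513 in H1R1, 394.7 and 415 in H1R6, and 286.4 in H1R18. Its libraries stayed close to NC up to H1R1 and lay below it afterwards. TPI1 fell at H1R6 by 0.28 (SE 0.0684, adjusted p = 0.00754) and at H1R18 by 0.78 (SE 0.0884, adjusted p = 1.68e-07). The H1R6 call was lost without NC replicate 1 or either H1R6 library, and the H1R18 call was kept in all 17 alternatives. The aldolases ALDOA and ALDOC and the regulatory enzyme PFKFB3 were called at no time.

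Most but not all listed enzymes of the lower part of the pathway turned from higher to lower. Without ENO2 and LDHB, this part has 6 listed enzymes from GAPDH to LDHA. PGK1, PGAM1, ENO1, PKM and LDHA rose at H1R1. None of the 6 was called at H1 or H1R6, and all 6 fell at H1R18. ENO2 and LDHB did not turn. ENO2 was called higher at H1R1, H1R6 and H1R18 (log2 fold change 1.13 at H1R18), and LDHB was called at no time. The counts and sums of the 6 leave these genes out. The summed level of the 6 was 4469 and 4496 CPM in NC, 4682 and 4632 in H1, 5524 and 5404 in H1R1, 4461 and 4721 in H1R6, and 3006 in H1R18.

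LDHA, the subunit of lactate dehydrogenase that favours lactate production, was at 495.5 and 456.1 CPM in NC, 461.7 and 500.9 in H1, 649.1 and 597.4 in H1R1, 468.6 and 505.9 in H1R6, and 250.2 in H1R18. The NC, H1 and H1R6 libraries overlapped, the H1R1 libraries lay above all of them, and the H1R18 library lay far below, at 0.526 times the NC level by the fitted fold change. LDHA rose at H1R1 (log2 fold change 0.39, SE 0.0721, adjusted p = 0.000177) and fell at H1R18 by 0.93 (SE 0.0947, adjusted p = 2.51e-08), the latter being the largest fall of any enzyme on the list. Both calls were kept in every alternative, 18 at H1R1 and 17 at H1R18. None of the 17 could leave out the only H1R18 library, so they do not check that library.

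ENO1, the main enolase, was at 1467 and 1501 CPM in NC, 1514 and 1472 in H1, 1967 and 1886 in H1R1, 1593 and 1726 in H1R6, and 982.5 in H1R18. Both H1R6 libraries were still above NC, by 0.16 on the log2 scale, which did not pass the test (adjusted p = 0.071). ENO1 rose at H1R1 (log2 fold change 0.38, SE 0.0547, adjusted p = 5.8e-06) and fell at H1R18 by 0.59 (SE 0.0691, adjusted p = 2.94e-07). PGK1, which makes ATP from the product of GAPDH, was at 346.3 and 387.5 CPM in NC, 397.7 and 404.1 in H1, 488.2 and 468.9 in H1R1, 400.7 and 411 in H1R6, and 267.4 in H1R18. It rose at H1R1 (0.39, SE 0.0718, adjusted p = 0.000195) and fell at H1R18 by 0.46 (SE 0.0919, adjusted p = 0.000954). PKM, the pyruvate kinase that makes ATP in the last step, ran from 1061 and 979.5 CPM in NC to 1213 and 1241 in H1R1 and 648.2 in H1R18. It rose at H1R1 (0.27, SE 0.0585, adjusted p = 0.00125) and fell at H1R18 by 0.65 (SE 0.0745, adjusted p = 2.01e-07). The calls of these 3 genes were kept in every alternative.

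PGAM1, a phosphoglycerate mutase, was at 107.3 and 106.5 CPM in NC, 129.6 and 132.5 in H1R1, and 71.33 in H1R18. It rose at H1R1 (log2 fold change 0.29, adjusted p = 0.025) and fell at H1R18 by 0.58 (adjusted p = 0.00216). The H1R1 call was lost with DESeq2, with library size only and without any 1 of the NC or H1R1 libraries. GAPDH, often used as a reference gene, was at 992.3 and 1065 CPM in NC, 1077 and 1078 in H1R1, 901.1 and 958.9 in H1R6, and 786.7 in H1R18. It was not called at H1, H1R1 or H1R6 (log2 fold changes 0.07, 0.07 and -0.15) and fell at H1R18 by 0.39 (SE 0.0752, adjusted p = 0.000625). GAPDH has 65 named pseudogenes, which together held 5639 counts over the 9 libraries beside 45831 for GAPDH, and reads that map to several of these places were not counted. LDHB, the other lactate dehydrogenase subunit, was called at no time (-0.27 at H1R18, adjusted p = 0.231).

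ENO2, the enolase typical of neurons and also a HIF target, did not follow ENO1. It was at 13.87 and 11.48 CPM in NC, 14.62 and 15.19 in H1, 19.38 and 21.8 in H1R1, 22.96 and 26.08 in H1R6, and 27.97 in H1R18. Libraries of each later condition all lay above those of the condition before. ENO2 rose at H1R1 (log2 fold change 0.68, SE 0.219, adjusted p = 0.0251), at H1R6 (0.94, SE 0.213, adjusted p = 0.00449) and at H1R18 (1.13, SE 0.259, adjusted p = 0.00344). The call was lost at H1R1 with DESeq2 and without NC replicate 2 or either H1R1 library. At H1R6 it was lost without NC replicate 2 or H1R6 replicate 2, and at H1R18 it was kept in all 17 alternatives. It rests on 44 to 150 counts per library.

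**Figure D3:**
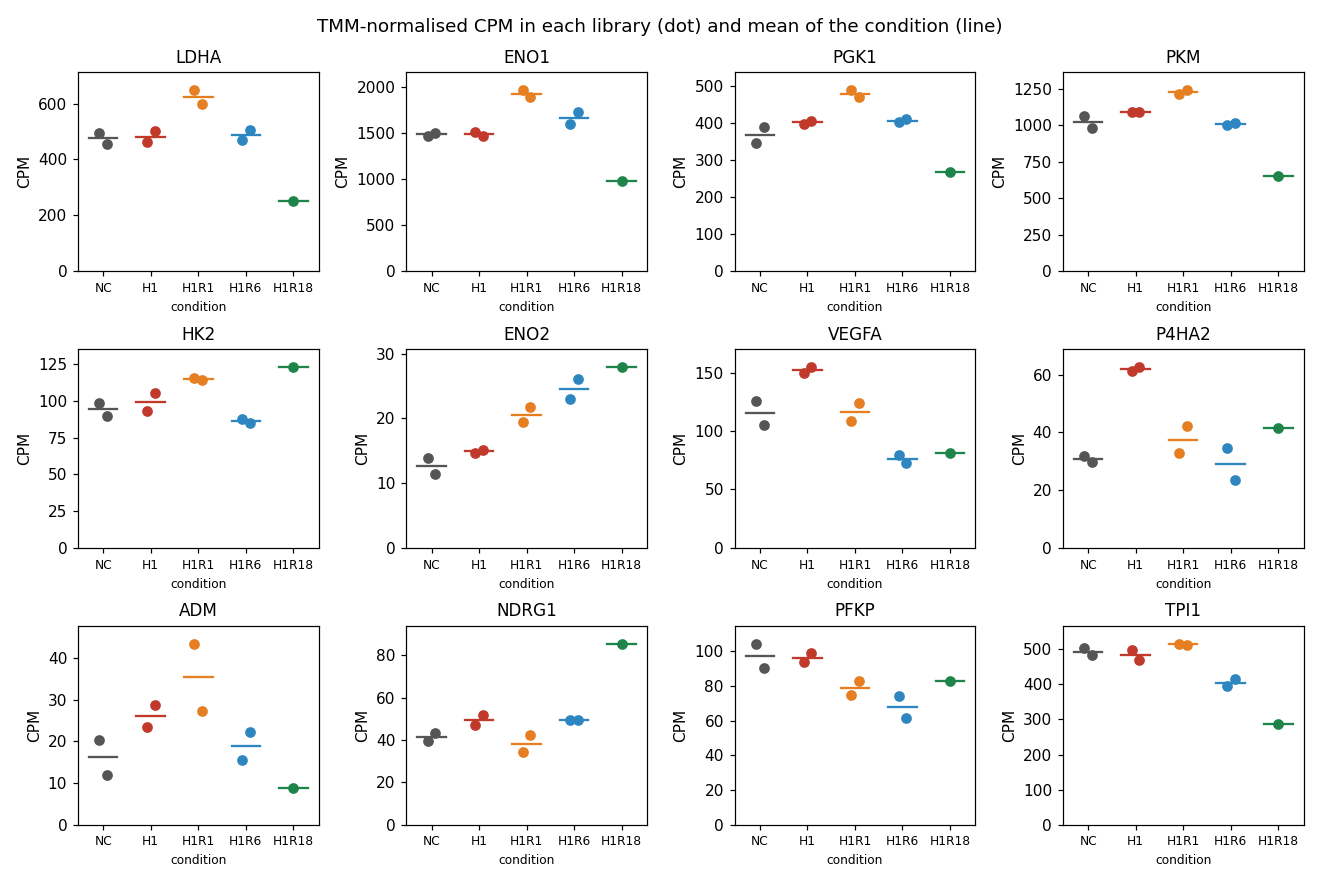
TMM-normalised CPM (vertical axes, from 0) of 12 listed genes in each library (dots) by condition (horizontal axes), lines marking condition means and 1 library at H1R18. LDHA, ENO1, PGK1 and PKM are highest at H1R1 and lowest at H1R18, whereas ENO2 climbs to 27.97 CPM and NDRG1 to 85.45 CPM at H1R18.

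Sister enzymes were also compared as shares of their family, computed per kilobase of exon. Exon length was that of all annotated exons of a gene, not of 1 transcript, so the size of a share depends on the annotation. By CPM alone, the NC means were 99.42 for LDHB and 475.8 for LDHA. ENO2 made up 1.14% and 0.924% of the enolase level in NC, 1.16% and 1.24% in H1, 1.19% and 1.39% in H1R1, 1.73% and 1.81% in H1R6, and 3.35% in H1R18. LDHB made up 29.2% and 30.3% of lactate dehydrogenase in NC, 26.7% and 27.1% in H1R1, 31.9% and 25.2% in H1R6, and 40.0% in H1R18. PFKM made up 32.4% and 33.8% of the 3 phosphofructokinase subunits in NC and 41.9% in H1R18. For all 3 shares, the H1R18 library was the highest of the 9. LDHB itself was not called at H1R18 (log2 fold change -0.27), while LDHA fell there (-0.93). These shares have no test of their own, and exons shared with another gene, 33.4% of LDHB's bases, hold reads that were not counted.

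**Figure D4:**
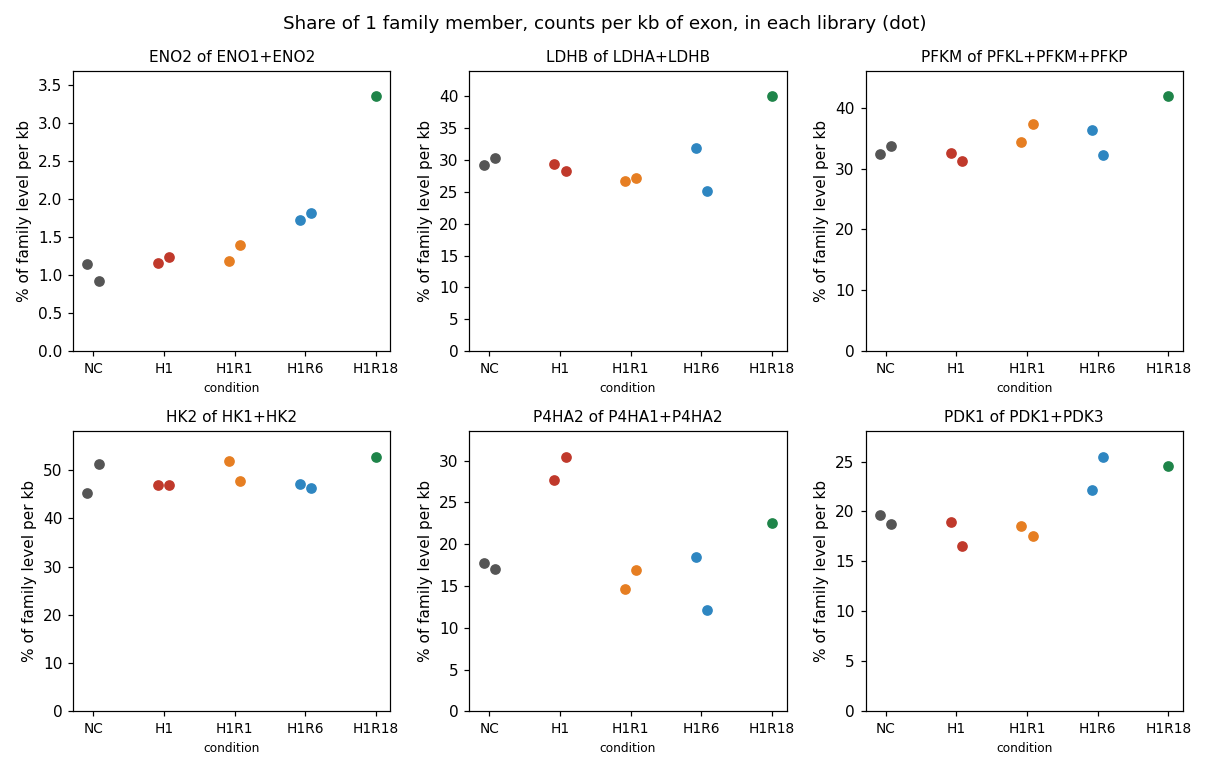
Share of 1 gene in the summed level of its family (vertical axes, % of counts per kb, from 0) in each library (dots) by condition. ENO2 reaches 3.35% of enolase and LDHB 40.0% of lactate dehydrogenase in the H1R18 library, and P4HA2 stands at 27.7% and 30.5% of the prolyl 4-hydroxylase pair in the H1 libraries against 17.8% and 17.0% in NC.

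Among the transporters, only SLC16A1 was called against NC. SLC16A1 (MCT1), which carries lactate and pyruvate across the plasma membrane, was at 393.4 and 397.1 CPM in NC, 403.6 and 409.2 in H1, 494 and 456.7 in H1R1, 448.6 and 448.5 in H1R6, and 296.4 in H1R18. It rose at H1R1 (log2 fold change 0.27, SE 0.0692, adjusted p = 0.00554, lost without H1R1 replicate 1) and fell at H1R18 by 0.42 (SE 0.088, adjusted p = 0.0016). Its course resembled that of LDHA in order, highest at H1R1 and lowest at H1R18, but its H1R6 libraries were above NC (0.18, not called).

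The main glucose transporter SLC2A1 (GLUT1) stayed between 44.39 and 54.4 CPM in all libraries and was called at no time. SLC2A3 (GLUT3) had 6 to 36 counts per library, with 12 and 8 in NC, 16 and 20 in H1, 10 and 8 in H1R1, 36 and 36 in H1R6, and 6 in H1R18. Against NC the H1R6 difference did not pass the test (log2 fold change 1.46, SE 0.494, adjusted p = 0.071). SLC16A3 (MCT4), the lactate exporter of glycolytic cells, had 46 and 10 counts in the NC libraries and was called at no time.

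PDK1 and PDK3 phosphorylate pyruvate dehydrogenase and so keep pyruvate out of the mitochondrial cycle. PDK3, the more abundant here, was at 202.7 and 213.2 CPM in NC, 187 and 206.3 in H1, 179.4 and 204.9 in H1R1, 173.8 and 163.9 in H1R6, and 135.7 in H1R18. The H1R6 and H1R18 libraries lay below both NC libraries. PDK3 fell at H1R6 by 0.30 (adjusted p = 0.0313, kept in 10 of 18 alternatives, lost without any 1 of the NC or H1R6 libraries or H1 replicate 2) and at H1R18 by 0.61 (SE 0.114, adjusted p = 0.000363, kept in all 17). PDK1, a classic HIF target, was called at no time (log2 fold changes -0.23 to 0.10).

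The HIF target genes were called at different times. Of the 11 tested, 2 were called higher at H1, 3 at H1R1, 0 at H1R6 and 1 at H1R18, while 1 was called lower at H1R6 and at H1R18. Shares of all genes called higher were 3.43%, 10.7%, 3% and 4.58% at these times, and 4.03% and 6.43% were called lower at H1R6 and H1R18, so with 11 genes a single call is near the background at H1R6 or H1R18. No gene was called higher at more than 1 of the 4 times. Their median log2 fold change was 0.31 at H1, 0.27 at H1R1, 0.15 at H1R6 and -0.07 at H1R18.

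P4HA2, a collagen prolyl 4-hydroxylase, was at 31.81 and 29.75 CPM in NC, 61.14 and 62.7 in H1, 32.74 and 42.2 in H1R1, 34.62 and 23.64 in H1R6, and 41.57 in H1R18. The 2 H1 libraries stood above all others. P4HA2 rose at H1 (log2 fold change 1.00, SE 0.167, adjusted p = 0.00014), a call kept in all 18 alternatives, and it was not called at any recovery time (adjusted p = 0.314, 0.865 and 0.22). The antisense gene P4HA2-AS1, which overlaps 5.41% of its exonic bases, had 4 counts in all, none of them at H1. Its sister P4HA1 peaked later, with 44.86 and 44.36 CPM in NC, 48.67 and 43.62 in H1, 58.64 and 63.53 in H1R1, 46.63 and 52.5 in H1R6, and 43.62 in H1R18. P4HA1 rose at H1R1 (0.45, SE 0.135, adjusted p = 0.0167), a call lost with DESeq2, without either NC library and without H1R1 replicate 2.

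VEGFA, the main growth factor of blood vessels, was at 126 and 105.2 CPM in NC, 149.6 and 155.1 in H1, 108.6 and 123.8 in H1R1, 79.3 and 72.67 in H1R6, and 81.08 in H1R18. Its H1 libraries lay above and its H1R6 and H1R18 libraries below both NC libraries, while H1R1 overlapped NC. VEGFA rose at H1 (log2 fold change 0.39, SE 0.0993, adjusted p = 0.0139), and fell at H1R6 by 0.61 (SE 0.104, adjusted p = 0.000192) and at H1R18 by 0.52 (SE 0.134, adjusted p = 0.01). The rise at H1 was lost with DESeq2, without NC replicate 2 (log2 fold change 0.28) and without either H1 library. The fall at H1R18 was lost without NC replicate 1, and the fall at H1R6 was kept in all 18 alternatives.

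ADM, which encodes the vasodilator peptide adrenomedullin, was at 20.39 and 12 CPM in NC, 23.53 and 28.61 in H1, 43.44 and 27.2 in H1R1, 15.54 and 22.25 in H1R6, and 8.72 in H1R18. Libraries of 1 condition differed widely, but both H1R1 libraries lay above NC and the H1R18 library below. ADM rose at H1R1 (log2 fold change 1.12, SE 0.241, adjusted p = 0.00102). Without H1R1 replicate 1 the log2 fold change was 0.72 (adjusted p = 0.107). At H1 the difference of 0.66 did not pass the test (adjusted p = 0.127), nor did that of -0.92 at H1R18 (adjusted p = 0.121).

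EGLN1, the main oxygen-sensing prolyl hydroxylase of HIF, was at 50.98 and 53.49 CPM in NC, 61.14 and 67.82 in H1, 69.5 and 80.65 in H1R1, 55.28 and 60.84 in H1R6, and 53.12 in H1R18. EGLN1 rose at H1R1 (log2 fold change 0.52, SE 0.125, adjusted p = 0.00301), a call lost without H1R1 replicate 2 (adjusted p = 0.0508). An unnamed gene covers 55.8% of its exonic bases, and reads there were not counted. The related EGLN3 was called at no time against NC.

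NDRG1, a stress-responsive gene linked to differentiation, was at 39.56 and 43.32 CPM in NC, 47.06 and 51.57 in H1, 34.08 and 42.2 in H1R1, 49.45 and 49.37 in H1R6, and 85.45 in H1R18. The H1R18 library stood apart from the other 8. NDRG1 rose at H1R18 (log2 fold change 1.05, SE 0.165, adjusted p = 4.58e-05), a call kept in all 17 alternatives, in the same library in which LDHA, ENO1, PKM and PGK1 were lowest. KDM3A, a histone demethylase, was at 47.92 and 59.23 CPM in NC and 66.49 and 74.71 at H1, and did not pass the test there (log2 fold change 0.41, adjusted p = 0.0559). The mitophagy receptors BNIP3 and BNIP3L were called at no time. ANKRD37 had only 2 to 19 counts per library, and its log2 fold changes of 1.05 at H1 (SE 0.671) and 1.20 at H1R6 (SE 0.665) were not called.

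The promoters shown are those of the listed genes called at a log2 fold change beyond 1 against NC at any time. LDHA was added after its values were seen, as the enzyme with the largest fall. NDRG1 also meets the rule and is named only. Each is the 250 bases before the start that RefSeq gives on GRCh38.p14, read 5′ to 3′ on the gene's strand. Capitals mark the core of the HIF-binding motif, ACGTG or GCGTG on either strand (CACGT or CACGC on the printed strand). Where CACGTG appears, the matches of both strands overlap, and this palindrome is also the E-box bound by MYC and related factors. The windows are chr12:6914330-6914579 on the plus strand (ENO2), chr11:10304823-10305072 on the plus strand (ADM), chr5:132227092-132227341 on the minus strand (P4HA2) and chr11:18394313-18394562 on the plus strand (LDHA).
ENO2: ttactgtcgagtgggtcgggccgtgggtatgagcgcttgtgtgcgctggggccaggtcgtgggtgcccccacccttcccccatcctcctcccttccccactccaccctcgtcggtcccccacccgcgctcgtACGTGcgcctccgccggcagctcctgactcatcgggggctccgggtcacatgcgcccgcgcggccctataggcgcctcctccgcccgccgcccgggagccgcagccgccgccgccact
ADM: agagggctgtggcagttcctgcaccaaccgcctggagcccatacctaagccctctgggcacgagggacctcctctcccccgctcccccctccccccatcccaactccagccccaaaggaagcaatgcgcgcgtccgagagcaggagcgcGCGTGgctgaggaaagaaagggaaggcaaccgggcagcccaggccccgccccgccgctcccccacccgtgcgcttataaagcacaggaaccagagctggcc
P4HA2: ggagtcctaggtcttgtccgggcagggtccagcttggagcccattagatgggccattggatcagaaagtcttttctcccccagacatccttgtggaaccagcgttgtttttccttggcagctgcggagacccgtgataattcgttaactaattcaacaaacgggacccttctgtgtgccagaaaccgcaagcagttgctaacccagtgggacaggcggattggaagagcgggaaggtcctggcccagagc
LDHA: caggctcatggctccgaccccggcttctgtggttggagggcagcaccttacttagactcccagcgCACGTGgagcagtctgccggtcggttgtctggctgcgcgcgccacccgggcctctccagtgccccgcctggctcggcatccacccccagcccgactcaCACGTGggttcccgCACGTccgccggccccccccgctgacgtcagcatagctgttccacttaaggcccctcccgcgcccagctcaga

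The ENO2 window held 1 match, 118 bases before the start, and the ADM window 1, 101 bases before. The LDHA window held 5, counting both strands, and the P4HA2 window 0. The ENO2 and P4HA2 starts of RefSeq lie inside the longer Ensembl genes, so these windows cover 1 start each. Of 31 listed genes with a window, 14 (45.2%) held ACGTG and 19 (61.3%) held ACGTG or GCGTG. Of all 35116 windows of this length, 18.5% and 43.2% did. The list was built from glycolysis and HIF target genes, and the windows were not matched for base content or expression. These shares are therefore no test of enrichment. The heat shock element, searched as 3 alternating GAA and TTC units with 2 free bases between neighbours, was in 0 of the 31 and in 0.441% of all windows. At so low a share, 0 among 31 windows carries little information on whether these genes lack the element. A match is a run of letters, not a binding site.

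Next come the 17 genes of the HIF system, all tested. Of these, 1 was called higher at H1 and 0 lower (unadjusted p under 0.05 in 3 and 1). At H1R1, 4 were called higher and 2 lower, and at both H1R6 and H1R18 1 was called in each direction. Over all genes too, calls were most frequent at H1R1 (10.7% higher and 9.53% lower, against 1.77% to 6.43% at the other times). The alpha subunits HIF1A and EPAS1, HIF3A and the partner ARNT were called at no time. HIF1A was at log2 fold changes of -0.29, -0.12, 0.11 and -0.21 in order of time. The ligase subunit VHL fell at H1R1 by 0.63 (adjusted p = 6.49e-06), at H1R6 by 0.37 (adjusted p = 0.00886) and at H1R18 by 0.47 (adjusted p = 0.00674).

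The coactivator EP300 rose at H1 (log2 fold change 0.33, adjusted p = 0.0165) and H1R1 (0.65, adjusted p = 1.3e-06), and its relative CREBBP at H1R1 (0.37, adjusted p = 0.00108). CITED2, which competes with HIF for these coactivators, rose at H1R1 (0.63, adjusted p = 0.000351) and H1R6 (0.46, adjusted p = 0.0195). SIAH2, a ligase that targets EGLN proteins, rose at H1R1 (0.85, adjusted p = 0.000372), ARNT2 fell there by 0.64 (adjusted p = 0.0384), and EGLN2 rose at H1R18 (1.00, adjusted p = 0.0265). HIF1AN, ELOB, ELOC, CUL2, RBX1 and SIAH1 were called at no time.

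Further HIF targets were called in both directions. Of 42 listed, 38 were tested, and 1, 4, 3 and 5 were called higher and 2, 3, 5 and 8 lower at H1, H1R1, H1R6 and H1R18. All genes were called higher in 3.43%, 10.7%, 3% and 4.58% and lower in 1.77%, 9.53%, 4.03% and 6.43%, and at H1R1 the counts are near these shares. Changes beyond 1 on the log2 scale are given here, and smaller ones are only counted. JMJD6, a lysyl hydroxylase, rose at H1 (log2 fold change 1.72, adjusted p = 4.13e-11) and H1R1 (2.12, adjusted p = 8.42e-14), and the chemokine receptor CXCR4 rose at H1R1 (1.86, adjusted p = 0.00253). DDIT4, an inhibitor of mTORC1, fell at H1R6 by 1.52 (adjusted p = 2.64e-09) and at H1R18 by 1.33 (adjusted p = 3.34e-06). VLDLR fell at H1R6 by 1.26 (adjusted p = 7.04e-05) and the glycogen branching enzyme GBE1 at H1R18 by 1.07 (adjusted p = 0.038), and RORA rose at H1R18 (1.08, adjusted p = 0.000493). PPFIA4 fell at H1R1 by 1.61 (adjusted p = 2e-06) and rose at H1R18 (1.08, adjusted p = 0.00086).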

How the data were processed

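RNA-seq counts of 9 libraries were analysed, and conditions were taken from the sample labels. The authors deposited whole-number read counts per gene, and per the file header these were made with featureCounts 2.0.2 on Ensembl 104 (GRCh38), counting each read of a pair, without strand, and leaving out reads with several alignments or several genes. Tools named in the submitters' processing notes were cutadapt 4.1, HISAT2 2.2.1, FastQC 0.11.8 and DESeq2 1.38.3. Such counting lowers genes that share exons or have close copies.

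Genes kept by filterByExpr (minimum count 10, minimum total 15) were TMM-scaled, then fitted in edgeR 4.0.16 (R 4.3.3; limma 3.58.1) by the quasi-likelihood test, 1 coefficient per condition and all 9 libraries in 1 fit. The Benjamini-Hochberg adjustment covered all 21139 genes, with a threshold of 0.05. The SE is the log2 fold change divided by the square root of F. The common biological coefficient of variation was 0.0905. Alternatives used DESeq2 1.42.0, other scaling and filters, halved counts, the conditions compared alone, no H1R18, a replicate block, and each library of the other conditions left out. None could leave out the H1R18 library and still test H1R18. Symbols were found for 60463 identifiers (99.7%). Intervals cover counting error only.

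All listed members were named in the text. Other pathway genes were named where an adjusted p was under 0.05 and the log2 fold change beyond 1, or, where they belong to the HIF system, in every case. Members and lists were chosen with earlier results of these data known. Promoter sequences and starts came from RefSeq tables. A comparison of protein sequences was not made.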

Additional observations from a re-analysis of the deposited data

Results flagged for a closer look

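Differences between neighbouring times were tested in the same edgeR quasi-likelihood fit, and each listed gene that passed is given here with its log2 fold change, because its level at 1 time differed from that at the time before. From H1 to H1R1, ENO1 (0.37), LDHA (0.37), PGK1 (0.26), SLC16A1 (0.23) and P4HA1 (0.40) rose, and PFKL (-0.33), VEGFA (-0.40) and P4HA2 (-0.74) fell. Leaving out 1 library ended the calls of P4HA1 (any 1 of the H1, H1R1 or H1R6 libraries), PGK1 and SLC16A1 (either H1 library or H1R1 replicate 1), PFKL and VEGFA (H1 replicate 2 or H1R1 replicate 1) and P4HA2 (H1R1 replicate 1). Those of ENO1 and LDHA were kept in all 18 alternatives.

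From H1R1 to H1R6, SLC2A3 rose (1.83, from 10 and 8 counts to 36 and 36). ENO1 (-0.22), PGK1 (-0.24), PGAM1 (-0.40), PKM (-0.28), LDHA (-0.36), GAPDH (-0.21), TPI1 (-0.35), GPI (-0.53) and HK2 (-0.41) fell among the enzymes, and VEGFA (-0.61), ADM (-0.92) and EGLN1 (-0.36) among the HIF targets. Leaving out 1 library ended the calls of SLC2A3 and PGK1 (H1R1 replicate 1 or either H1R6 library), ADM, ENO1 and GAPDH (H1R1 replicate 1 or H1R6 replicate 1), EGLN1 (H1 replicate 2, H1R1 replicate 2 or either H1R6 library), PGAM1 (H1R6 replicate 1) and HK2 (H1R6 replicate 2). Without H1R1 replicate 1 the log2 fold change of ADM was -0.52. The calls of GPI, TPI1, PKM, LDHA and VEGFA were kept in all 18 alternatives.

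From H1R6 to H1R18, HK2 (0.51), PFKM (0.65) and NDRG1 (0.79) rose. ENO1 (-0.76), PGK1 (-0.60), PGAM1 (-0.47), PKM (-0.64), LDHA (-0.96), GAPDH (-0.24), TPI1 (-0.50), SLC16A1 (-0.60), ADM (-1.11), EGLN3 (-0.90) and SLC2A3 (-2.02) fell. The SLC2A3 call had an adjusted p of 0.0499 and was kept in 7 of 15 alternatives. Leaving out 1 library ended the calls of SLC2A3 (any 1 of the H1 or H1R6 libraries), GAPDH (either H1 library or H1R6 replicate 2), ADM (H1 replicate 2 or H1R6 replicate 2), EGLN3 (either H1R6 library) and PGAM1 (H1R6 replicate 2). H1R18 had 1 library.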

How the results depend on the processing

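Of the counts of listed genes called against NC, those at H1R18 were within 1.5 times of the reported 3 higher and 11 lower in every alternative. The only H1R18 library was part of each of these. At H1, 1 gene was called higher with DESeq2 and 4 with no filter on low counts, and 1 to 3 when each library was left out in turn, with 0 lower throughout. At H1R1, DESeq2 called 7 higher, and leaving out each library gave 6 to 12 higher and 0 to 1 lower. The single lower call there became 2 with upper-quartile factors, library size only or at least 10 counts in every library, and 0 with DESeq2, no filter, only the conditions compared or the replicate block. At H1R6, 2 were called higher with library size only, DESeq2, no filter or at least 10 counts in every library and 3 with counts halved to read pairs, and leaving out libraries gave 0 to 2 higher and 2 to 7 lower. At H1R18 that range was 2 to 3 higher and 9 to 11 lower. For H1R1 against H1, 3 were called higher with upper-quartile factors or no filter and 2 with library size only, and 5 lower with library size only, at least 10 counts in every library or halved counts (left-out range 2 to 6 higher, 0 to 4 lower). For H1R6 against H1R1, 2 were called higher with upper-quartile factors or at least 10 counts in every library, 3 with library size only or halved counts and 0 with DESeq2 (left-out range 0 to 2 higher, 9 to 12 lower). For H1R18 against H1R6 the left-out range was 3 to 4 higher and 6 to 12 lower. The causes were not tested.

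Replicate numbers did not pair the libraries: deviations of same-numbered libraries correlated at -0.0331 to 0.0391 over 11586 genes. The fit with the replicate number as a block left the number of higher calls at H1R1 within 1.5 times of 12 and the lower calls at 0. Depth limits genes such as SLC2A3, ANKRD37 and SLC16A3, with fewer than 50 counts in any library, and CA9 was not tested. Scaling by library size alone moved the median log2 fold change of all genes by -0.0626 at H1R1 against NC, and by 0.092 for H1R6 against H1R1, where all genes went from 1360 higher and 1888 lower to 1946 higher and 1177 lower.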

Other observations

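Counts of further gene lists are given in the order H1, H1R1, H1R6 and H1R18, each against NC. Over all genes tested, 3.43%, 10.7%, 3% and 4.58% were called higher and 1.77%, 9.53%, 4.03% and 6.43% lower. In lists this short 1 or 2 calls change a share greatly. For example, 2 lower calls at H1R6 were 22.2% of the pentose phosphate genes, and 2 higher calls at H1R18 were 18.2% of the other transporters. Of 19 tested other glycolysis genes, 3, 3, 2 and 1 were called higher and 0, 1, 1 and 0 lower. PFKFB4, which makes the activator of phosphofructokinase, rose at all 4 times, most at H1R1 (log2 fold change 1.14, adjusted p = 0.000107, edgeR's quasi-likelihood test, as for all adjusted p here). HK3, a hexokinase of blood cells, had 2 counts in the NC libraries together, 48 at H1 and 28 at H1R1, which are ratios of 18.6 (95% counting interval 3.03 to 765.0) and 11.9 (1.82 to 505.0), the intervals computed on 1, 24 and 14 read pairs.

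Of 16 tested genes of pyruvate fate, 0, 0, 0 and 1 were called higher and 0, 4, 2 and 5 lower. PCK2, the mitochondrial enzyme that makes phosphoenolpyruvate, fell at H1R1 by 1.81 (adjusted p = 1.07e-11), at H1R6 by 1.95 (adjusted p = 9.82e-12) and at H1R18 by 1.07 (adjusted p = 4.02e-05). The alanine transaminase GPT fell at H1R18 by 1.60 (adjusted p = 0.0032), and PDP2, a phosphatase that opposes PDH kinases, rose there (1.01, adjusted p = 3.76e-05). Of 9 tested pentose phosphate genes, 0, 1, 0 and 0 were called higher and 0, 1, 2 and 0 lower, and H6PD fell at H1R1 by 1.38 (adjusted p = 4.72e-09). The MondoA list holds the targets TXNIP and ARRDC4 and the transcription factor genes MLXIP (MondoA itself), MLXIPL and MLX. Of these 5, all tested, 1, 1, 0 and 0 were called higher and 0, 3, 1 and 3 lower, and the higher call at H1R1 was MLXIP (0.26, adjusted p = 0.0232). TXNIP, which limits glucose uptake, rose at H1 (0.46, adjusted p = 0.0197) and fell at all 3 recovery times, at H1R18 by 1.21 (adjusted p = 2.35e-05).

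Of 11 tested other transporters, 0, 1, 1 and 2 were called higher and 0, 2, 0 and 1 lower. SLC2A4 (GLUT4) rose at H1R6 (log2 fold change 1.57, adjusted p = 0.000367) and H1R18 (1.77, adjusted p = 0.000465), and SLC2A10 fell at H1R1 by 1.20 (adjusted p = 0.0124) and at H1R18 by 1.78 (adjusted p = 0.0161). SLC2A14, a near copy of SLC2A3, had 6 and 0 counts in NC, 18 and 0 in H1, 48 and 4 in H1R1, 28 and 24 in H1R6, and 30 in H1R18. It was called higher at H1R1 and H1R18, but its H1R1 libraries overlapped those of NC, and nearly all of its H1R1 counts were in 1 library. Reads shared with SLC2A3 were not counted for either gene.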
